A study of Homo sapiens with 4 samples.

Results

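NQO1, 4 aldo-keto reductases of the AKR1 family and 4 enzymes that make or feed NADPH (PGD, TALDO1, TKT and ME1) were followed in H1299 cells, a human lung carcinoma line, given ginseng nanoparticles or phosphate-buffered saline (PBS). These 9 genes were chosen by symbol, and all 9 were found among the 61541 gene rows of each library. Stranded libraries of polyadenylated RNA were sequenced, 2 from PBS-treated cultures and 2 from nanoparticle-treated cultures, all grown in the same serum-supplemented medium. The treatment label names the nanoparticle for the latter, although the word control stands in their titles too. The labels name neither a dose, an exposure time nor the ginseng organ used, and they do not say that replicates were separate cultures, so the p-values rest on a spread among libraries that may be technical. The study asked how such particles affect migration of cancer cells.

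NQO1 and the AKR1 enzymes reduce reactive carbonyls and quinones at the expense of NADPH (NQO1 can also use NADH). NADPH in the cytosol comes from the oxidative branch of the pentose phosphate pathway, from malic enzyme and from isocitrate dehydrogenase. Most of these genes are known targets of NRF2, the transcription factor that binds antioxidant response elements when electrophiles or oxidants disable its inhibitor KEAP1. Lung cancer lines with a damaged KEAP1 are known for very high AKR1B10 and AKR1C levels.

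Depth was between 22252686 and 24979081 counts on genes, and the nanoparticle libraries were the deeper ones. Of the markers chosen for H1299, KRT8 had 14265 to 15077 counts, KRT18 22673 to 23173 and VIM 51588 to 55771, while KRT7 had 161 to 175 and KRT19 2 to 9. Scaled for depth, KRT18 (log2 -0.16), KRT8 (-0.11) and VIM (-0.092) were lower with nanoparticles and passed the test described next (edgeR adjusted p = 0.000526, 0.0240 and 0.0137), and the part of this in any result was not tested. The 12 markers of immune, fibroblast, endothelial and differentiated lung cells summed to 23 and 27 counts with PBS and to 42 and 39 with nanoparticles, and their part in any result was not tested, with PTPRC, SFTPC and SCGB1A1 at 0 throughout. Across all genes, 407 of 15778 tested passed an adjusted p of 0.05 (edgeR's quasi-likelihood test, Benjamini-Hochberg adjustment), which is 2.58% of them, 1.75% higher and 0.83% lower with nanoparticles.

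None of the 9 genes changed past that threshold. In edgeR's test 0 of the 6 with enough counts to be tested passed, 1 (NQO1) had an unadjusted p under 0.05, beside 16.8% of all tested genes, and DESeq2 and limma-voom also called 0. The other 3 genes, AKR1B10, AKR1C1 and AKR1C2, had at most 11 counts in any library and did not pass the filter on low counts. Their median log2 fold change was 0.0059 over the 6 tested, beside 0.00056 over all tested genes. Groups did not overlap for 2 of the 6 with nanoparticle values above PBS (23.7% of all tested genes) and for 1 with nanoparticle values below (23.2%), so that 3 of 6 stood beside a background of 46.9%.

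**Figure D1:**
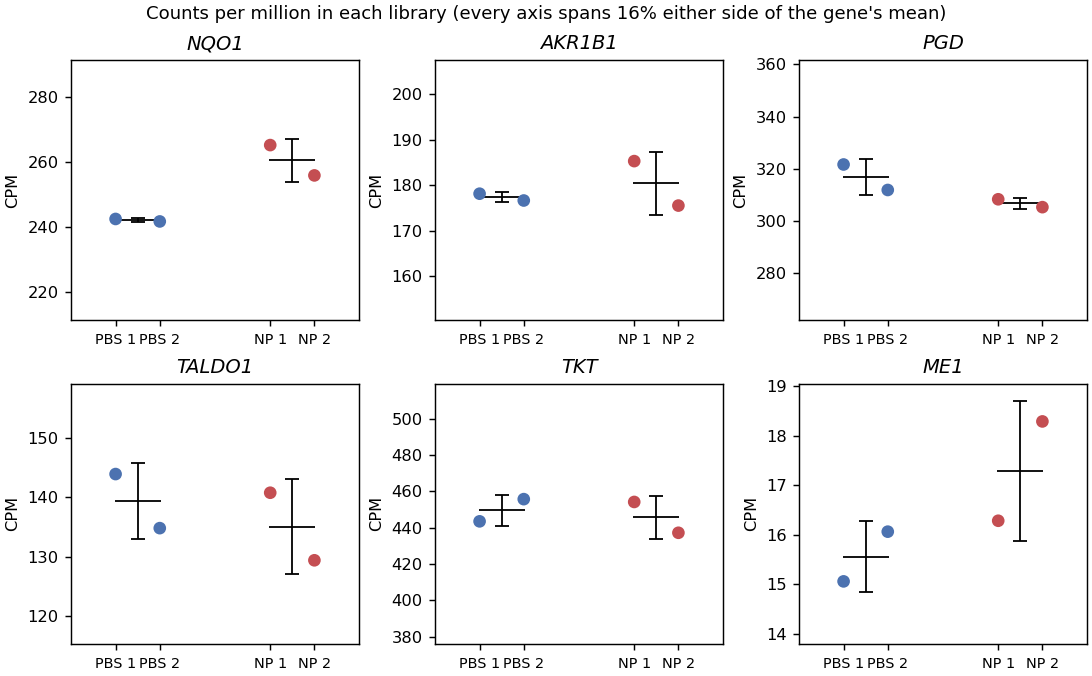
CPM (counts scaled to library size) of the 6 tested genes in PBS replicates 1 and 2 (blue) and nanoparticle replicates 1 and 2 (NP, red), with the mean and SD of each group (n = 2) in black. The nanoparticle libraries lie above PBS for NQO1 and ME1 and below it for PGD, and the groups overlap for AKR1B1, TALDO1 and TKT.

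NQO1, which reduces quinones straight to hydroquinones and so bypasses the reactive semiquinone, lies on chromosome 16 from 69706996 to 69726951 on the minus strand (GRCh38, GENCODE 29). It had 242.4 and 241.7 CPM in the PBS libraries and 265 and 256 CPM in the nanoparticle libraries. Both nanoparticle libraries were above both PBS libraries, and the PBS libraries were nearly equal. The group means were 242 ± 0.542 and 261 ± 6.62 CPM (SD, n = 2 each), a fold of 1.08 with a 95% interval of 1.03 to 1.13 (log2 0.11, SE 0.032, edgeR adjusted p = 0.0825 over all tested genes). The difference between groups, 0.11 on the log2 scale, compared with gaps between replicates of 0.0046 (PBS) and 0.052 (nanoparticle). Of 2715 genes with at least 100 CPM on average, 280 (10.3%) had a fold change at least as large in either direction. NQO1 shares 575 exon bases with AC092115.2, an antisense gene on the opposite strand that had 0 counts in every library.

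Genes of like pattern were sought among those of at least 100 CPM, as the smallest distance between log2 CPM values, each centred on its gene's mean, over the 4 libraries. The 3 nearest of 2714 were FAM120A (distance 0.012), HYOU1 (0.017) and WDR45B (0.018). Their log2 fold changes were 0.10, 0.092 and 0.12, and none passed in edgeR's test (adjusted p = 0.0999, 0.115 and 0.0693).

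The AKR1 reductases fell into an abundant gene and 3 that were barely detected. AKR1B1, aldose reductase, which turns glucose into sorbitol and also clears lipid aldehydes, lies on chromosome 7 from 134442350 to 134459284. It had 178 and 177 CPM with PBS and 185 and 176 CPM with nanoparticles. Nanoparticle replicate 1 was the highest library and nanoparticle replicate 2 the lowest, so the groups overlapped. Its log2 fold change was 0.024 (SE 0.035, edgeR adjusted p = 0.789), and the 95% interval of the fold ran from 0.967 to 1.07. Once the trend of fold change on transcript length was removed, the log2 fold change was 0.073 (adjusted p = 0.341).

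AKR1B10, a reductase of retinal and other aldehydes whose gene follows AKR1B1 on chromosome 7, had 0 and 2 counts with PBS and 2 and 2 with nanoparticles. A count of 0 in PBS replicate 1 allows up to 3 counts, or 0.135 CPM, from counting error alone. AKR1C1 and AKR1C2, reductases of steroid hormones on chromosome 10, were as scarce. AKR1C1 had 1 and 3 counts with PBS and 8 and 3 with nanoparticles, and AKR1C2 had 9 and 6 against 11 and 9. Each of the 3 genes overlapped between groups. Summed over a group and scaled for depth, the ratio of nanoparticle to PBS was 1.79 for AKR1B10 (95% interval 0.256 to 19.8), 2.46 for AKR1C1 (0.729 to 10.6) and 1.19 for AKR1C2 (0.580 to 2.50). These exact intervals cover counting error only, and a change within them was not detectable at this depth.

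AKR1C1 and AKR1C2 are near-copies, which bears on how reads are shared between them. Over the 969 coding bases of their principal transcripts they differed at 19 positions (98.0% identity), with identical runs of up to 186 bases. Of all stretches of 50 coding bases in AKR1C1, 51.6% also occur in AKR1C2, and of stretches of 100 bases 18.9% do. Reads from such stretches align to both genes and are not counted for either when only unique alignments are used. How many reads this concerns is not known, as the noncoding parts were not compared. The whole transcripts are 6705 bases long for AKR1C1 and 3756 for AKR1C2. Single values of the pair are therefore uncertain. The coding stretch of 120 bases that tells them apart best, bases 43 to 162 counted from the start codon, holds 10 of the 19 differences, shown in capitals.
AKR1C1: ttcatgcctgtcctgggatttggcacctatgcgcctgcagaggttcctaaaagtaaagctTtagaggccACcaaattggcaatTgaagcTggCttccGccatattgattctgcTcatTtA
AKR1C2: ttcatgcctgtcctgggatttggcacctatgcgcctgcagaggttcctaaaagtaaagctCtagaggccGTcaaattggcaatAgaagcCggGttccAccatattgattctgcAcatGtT
The first 60 bases shown carry no difference, and the capitals lie in the remainder. AKR1B1 and AKR1B10 share no coding stretch of 50 bases (0.0%), so at that length this limit does not arise between their coding parts. The 11 annotated pseudogenes named after AKR1B1, AKR1B10 and PGD had 1 count in all. Their sequences were not compared with those of the genes. Where only unique alignments are used, reads shared with them would go uncounted too, so their low counts cannot show that AKR1B1 lacks this limit.

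The wider aldo-keto reductase superfamily was followed too. Of 17 genes 6 were tested and 0 passed, with a median log2 fold change of -0.034 (0.0093 after removal of the length trend), and the 11 untested genes had at most 12 counts in a library. AKR7A2, which reduces succinic semialdehyde, had a log2 fold change of -0.052 (SE 0.047). AKR1A1, the general aldehyde reductase, had 55.7 and 55.8 CPM with PBS and 56.0 and 54.2 with nanoparticles. AKR1E2 (log2 -0.20, SE 0.12) and the potassium channel beta subunits KCNAB2 (-0.16, SE 0.11) and KCNAB3 (0.071, SE 0.19) had wider errors. Leaving out 1 library at a time moved AKR1E2 between -0.30 and -0.11, KCNAB2 between -0.25 and -0.074, KCNAB3 between -0.036 and 0.17 and AKR7A2 between -0.099 and -0.0067.

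**Figure D2:**
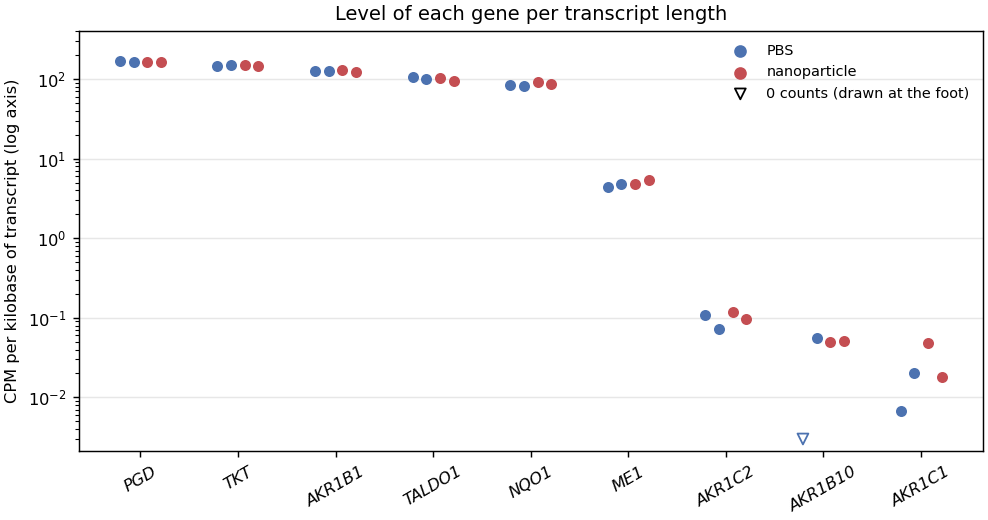
Level of each of the 9 genes in the 4 libraries, as CPM per kilobase of principal transcript on a log axis, ordered by the PBS mean. The first 5 genes lie between 83.0 and 171, ME1 near 5, and AKR1C2, AKR1B10 and AKR1C1 under 0.12, with the open triangle marking 0 counts.

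Per kilobase of principal transcript, which allows levels of different genes to be compared, PGD was the most abundant at a PBS mean of 168 CPM per kilobase. TKT followed at 149, AKR1B1 at 126, TALDO1 at 104 and NQO1 at 83.1. The ranges over all 4 libraries of these neighbours did not overlap (162 to 171 for PGD and 145 to 151 for TKT, for example), and the order was the same in both groups. ME1 was far lower at 4.62, and the 3 scarce genes lay at 0.0896 (AKR1C2), 0.0281 (AKR1B10) and 0.0134 (AKR1C1), where each rests on 11 counts or fewer per library and the ranges of AKR1B10 and AKR1C1 overlapped. The length used for AKR1C1 is 6705 bases, most of it beyond the coding part, so its level per length depends on that gene model. The order of the abundant genes likewise depends on the transcript chosen for each gene, 1885 bases long for PGD and 3010 for TKT. Before scaling by length, the PBS mean was 317 CPM for PGD and 450 CPM for TKT.

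Among pentose phosphate enzymes the 3 chosen genes had fold changes near 0. PGD, phosphogluconate dehydrogenase, which yields NADPH in the oxidative branch, had 322 and 312 CPM with PBS and 308 and 305 CPM with nanoparticles. Both nanoparticle libraries were below both PBS libraries, though the nearest pair, PBS replicate 2 and nanoparticle replicate 1, differed by less than the PBS libraries did. Its log2 fold change was -0.046 (SE 0.030, edgeR adjusted p = 0.479), with a 95% interval of the fold from 0.927 to 1.01. With the length trend taken out it was -0.012.

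TKT, transketolase, and TALDO1, transaldolase, run the reversible branch that links pentoses to glycolysis. TKT had 444 and 456 CPM with PBS and 454 and 437 with nanoparticles, and TALDO1 had 144 and 135 against 141 and 129. For both genes the groups overlapped, and the gap between replicates exceeded that between groups. TALDO1 replicates differed by 0.094 (PBS) and 0.12 (nanoparticle) on the log2 scale, beside a group difference of -0.046. The log2 fold changes were -0.013 (SE 0.029) for TKT and -0.045 (SE 0.042) for TALDO1, with edgeR adjusted p = 0.878 and 0.647, and the 95% intervals of the fold were 0.951 to 1.03 and 0.912 to 1.03.

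In the pathway as a whole, 13 of 15 genes were tested, 1 passed and was lower, and 11 had a fold change below 0 (median log2 -0.045), beside 49.8% of all tested genes below 0 and their median of 0.00056. With the length trend taken out, 8 of the 13 were below 0 and the median was -0.011. The gene that passed was PGLS, the lactonase of the oxidative branch. It had 80.1 and 80.5 CPM with PBS and 73.6 and 70.4 CPM with nanoparticles, a fall with no overlap between groups (log2 -0.16, SE 0.042, edgeR adjusted p = 0.0485). Removing the trend of fold change on transcript length gave a log2 fold change of -0.096 (adjusted p = 0.295), removing length and GC trends gave -0.055 (0.578), and it passed in 6 of 15 alternatives. It did not pass without nanoparticle replicate 1 (adjusted p = 0.0841) or without nanoparticle replicate 2, and no gene of the table passed without a PBS library. SHPK (log2 -0.18, SE 0.11) and RPIA (-0.045, SE 0.044) did not pass, and without 1 library they ran from -0.28 to -0.082 and from -0.060 to -0.031.

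ME1, the cytosolic malic enzyme, which makes NADPH while turning malate into pyruvate, had the largest fold change of the 6 and the lowest level. It had 15.1 and 16.1 CPM with PBS and 16.3 and 18.3 CPM with nanoparticles. The groups did not overlap, but nanoparticle replicate 1 exceeded PBS replicate 2 only narrowly. The means were 15.6 ± 0.710 and 17.3 ± 1.42 CPM (SD, n = 2 each), a log2 fold change of 0.15 (SE 0.083, edgeR adjusted p = 0.379) with a 95% interval of the fold from 0.985 to 1.25. It was 0.066 without nanoparticle replicate 2 and 0.23 without nanoparticle replicate 1, so 1 library moved it by more than 1.5 times.

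The list of other NADPH sources also holds linked enzymes that need not make NADPH themselves, such as MTHFD1L, NADK and NADK2. Its median log2 fold change was 0.0025, and 0 of 14 tested genes out of 16 passed in edgeR's test. There 1 had an unadjusted p under 0.05, and DESeq2 and limma-voom called 0. That 1 was MTHFD2L, a mitochondrial folate enzyme, with 13.2 and 12.7 CPM with PBS and 15.1 and 16.3 with nanoparticles (log2 0.28, SE 0.085, adjusted p = 0.0866). IDH1, the cytosolic isocitrate dehydrogenase, had a log2 fold change of 0.077 (SE 0.044), the mitochondrial malic enzyme ME3 of -0.11 (SE 0.057), and MTHFD1L, another mitochondrial folate enzyme, of -0.061 (SE 0.033). Without 1 library IDH1 ran from 0.021 to 0.13 and MTHFD1L from -0.090 to -0.034.

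Quinone and carbonyl reductases and related detoxifying enzymes were the list nearest to NQO1 in function. Of 26 genes 23 were tested, 0 passed in edgeR's test (also 0 by DESeq2 and limma-voom), 13 had a fold change above 0, and 8 had an unadjusted p under 0.05, in both directions (median log2 0.032). Over all tested genes 16.8% had such a p, and no test of the list against them was made. NQO2, a relative of NQO1 that draws on dihydronicotinamide riboside rather than NADPH, had 37.3 and 37.0 CPM with PBS and 43.3 and 39.4 with nanoparticles (log2 0.15, SE 0.057), which became 0.068 with the length trend taken out, 0.084 without nanoparticle replicate 1 and 0.22 without nanoparticle replicate 2. AIFM2, which reduces ubiquinone at the plasma membrane, had a log2 fold change of 0.13 (SE 0.053) and CRYZ, a quinone reductase, of 0.12 (SE 0.049). PTGR3, a reductase of prostaglandin ketones, had -0.16 (SE 0.055, adjusted p = 0.126). Once the length trend was taken out it had -0.23 and passed (adjusted p = 0.0386). ALDH3A1 and UGT1A6 were at 0 in every library and ALDH1A1 had a single count.

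**Figure D3:**
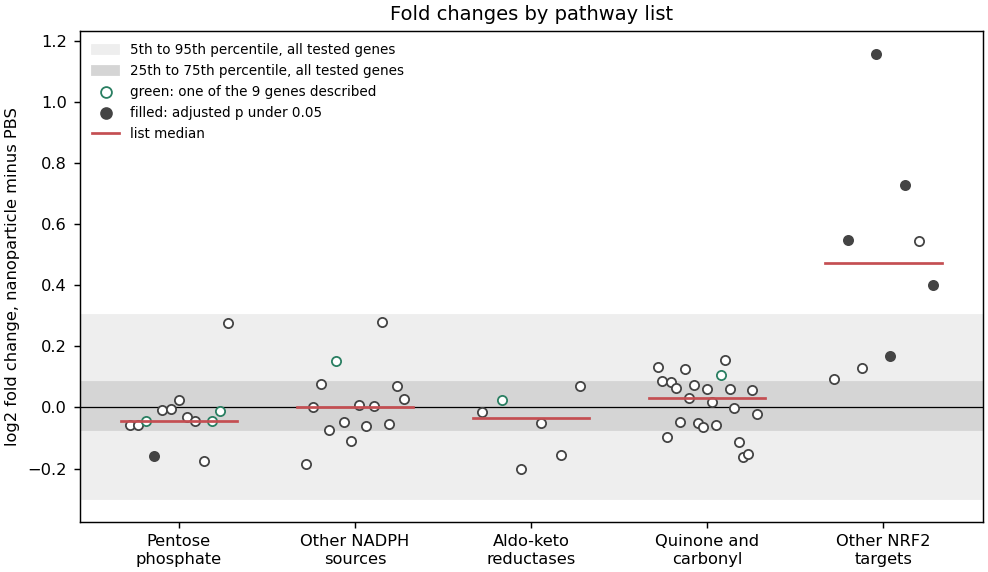
Log2 fold change (nanoparticle minus PBS) of every tested gene of each pathway list, with list medians in red, the 9 genes in green, filled points for an adjusted p under 0.05, and grey bands for percentiles over all tested genes. PGLS is the filled point among the 4 metabolic lists, all of whose points lie within the 5th to 95th percentile band.

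NQO1 (fold 1.08) and ME1 (1.11) were set beside other NRF2 targets. Of 8 such genes, a list drawn up with earlier results of these libraries known and so no independent evidence of its direction, 5 passed, all higher, with a median log2 fold change of 0.47. TXNRD1, the cytosolic thioredoxin reductase, had a fold of 1.32 (95% interval 1.27 to 1.37), GCLM of glutathione synthesis 1.46 (1.37 to 1.56), HMOX1 2.23 (1.97 to 2.53) and SLC7A11 1.66 (1.42 to 1.93). The intervals of these 4 lay above that of NQO1 (1.03 to 1.13). OSGIN1 at 1.12 (1.06 to 1.20), GSR, glutathione reductase, at 1.09 (1.04 to 1.15) and GCLC at 1.07 (0.996 to 1.14) overlapped it, and of these OSGIN1 passed, while GSR (adjusted p = 0.0733) passed in 2 of 15 alternatives. SRXN1 had under 1.2 CPM in every library and a fold of 1.46 with a wide interval (0.924 to 2.30). The difference between NQO1 and each of these genes was not tested. Without PBS replicate 1, without PBS replicate 2 or with no filter on low counts no gene of the whole table passed, the 5 included. There the log2 fold change was 0.37, 0.43 and 0.41 for TXNRD1 and 1.11, 1.21 and 1.17 for HMOX1. OSGIN1 passed in 8 of 15 alternatives, and did not without either nanoparticle library.

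**Figure D4:**
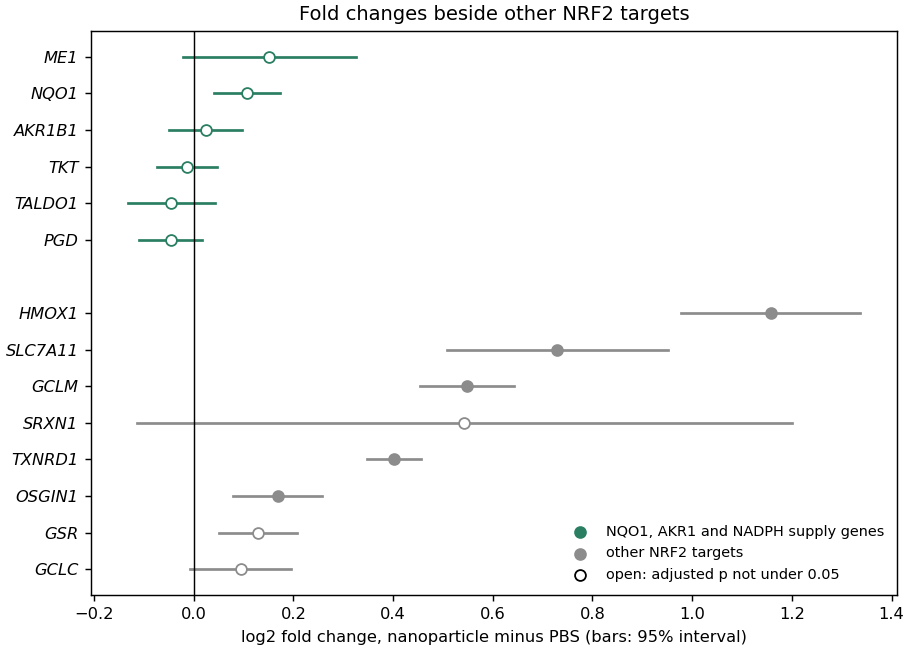
Log2 fold change with its 95% interval for the 6 tested genes (green) and 8 other NRF2 targets (grey), open where the adjusted p was not under 0.05. The intervals of HMOX1, SLC7A11, GCLM and TXNRD1 lie to the right of those of NQO1 and ME1, whose upper bounds are 0.17 and 0.33.

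Promoters were searched for the core of the antioxidant response element, TGACNNNGC on either strand, from 250 bases before to 50 after the start site (RefSeq, GRCh38.p14). The core was found in 13.35% of 35116 such windows. Of the 9 genes 8 matched the table (AKR1B10 did not), and 2, PGD and ME1, held the core. Of the 8 other targets 5 matched and GCLM and TXNRD1 held it. The sites are shown with the core in capitals, for 2 of the 9 genes, which did not pass, and for 2 targets that rose. For each the chromosome position, strand and distance of the first core base before the start site follow.
ME1: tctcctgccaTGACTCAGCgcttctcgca
PGD: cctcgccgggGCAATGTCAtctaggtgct
GCLM: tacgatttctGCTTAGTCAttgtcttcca
TXNRD1: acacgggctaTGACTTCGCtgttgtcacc
The ME1 sequence lies at chr6:83431170-83431198 on the minus strand, 137 bases before the start, and its TGACTCAGC also contains the AP-1 site TGACTCA. That longer form occurs in 0.56% of windows and the AP-1 site in 4.95%. The PGD sequence lies at chr1:10398853-10398881 on the plus strand, 201 bases before the start, and carries the core in reverse. The GCLM sequence lies at chr1:93909446-93909474 on the minus strand, 34 bases before the start and in reverse, and that of TXNRD1 at chr12:104215670-104215698 on the plus strand, 99 bases before the start. ME1 also held the core 12 bases after its start, and TXNRD1 held further cores 8 bases before this start and 102 before its other start in the table. In NQO1, AKR1B1, AKR1C1, AKR1C2, TALDO1 and TKT these letters were not found in this window. Bases beyond it were not searched, so a core farther from the start would be missed. A match is a description of letters and says nothing of binding in these cells.

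Over 15 alternatives the log2 fold change of NQO1 stayed above 0, from 0.080 without nanoparticle replicate 1 to 0.13 without nanoparticle replicate 2. Its adjusted p in edgeR's test ran from 0.0459, in the 1 alternative where it passed, to 0.544 without a low-count filter, and DESeq2's Wald test gave 0.402. ME1 stayed above 0 and PGD below 0 in all 15. AKR1B1, TALDO1 and TKT changed sign in 1, 4 and 3 of them.

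**Figure D5:**
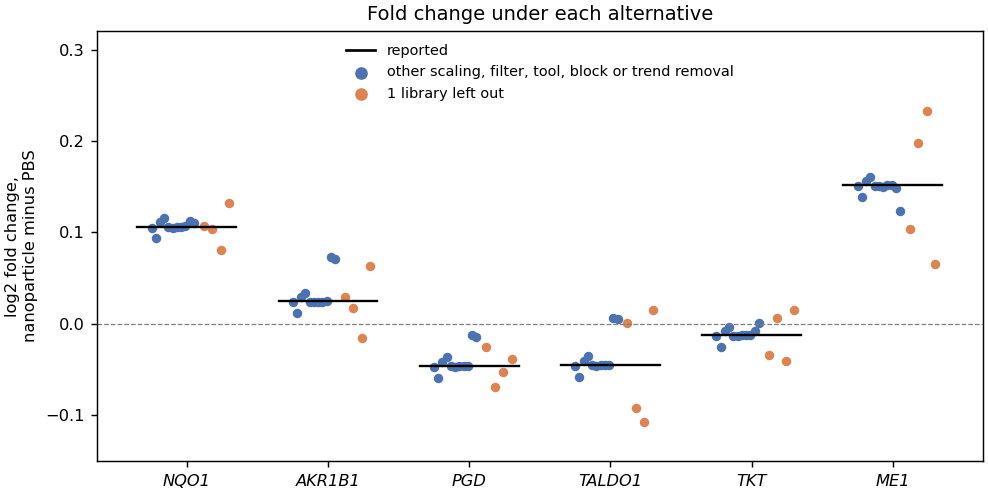
Log2 fold change (nanoparticle minus PBS) of the 6 tested genes as reported (black line), under 11 other scalings, filters, tools, a block or trend removals (blue) and with 1 library left out (orange). NQO1 and ME1 stay above 0 and PGD below it, while AKR1B1, TALDO1 and TKT cross it.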

How the data were processed

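Build GRCh38, STAR 2.7.6a and HTSeq 2.0.2 are named, with cutadapt 3.5, bcl2fastq 2.20 and Picard, per the submitters' processing notes. Not given in the sources used here are the annotation release and the strand setting. The authors deposited raw counts of reads for each Ensembl gene, unnormalized, in a file for every library. Rows for reads given to no gene (13.7% to 14.8% of reads) were left out.

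A table of gene names gave symbols to 61369 of 61541 rows. Positions and lengths came from GENCODE 29. The replicates of a group differed by more than sampling noise (chi-square per degree of freedom 1.86 and 2.05). Genes were filtered with filterByExpr, scaled by TMM and tested with edgeR 4.0.16 (R 4.3.3), two-sided, in 1 fit over all genes. Intervals used 20.3 degrees of freedom. Counts of 0 allow 3 counts, at the 95% level.

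The 9 genes and all lists were chosen with earlier results of these data known. Named genes are the 9, list genes that passed or otherwise the 4 of smallest p, the 8 other NRF2 targets, the 3 nearest to NQO1 and annotated pseudogenes. AKR1A1, SHPK, RPIA, ALDH1A1, ALDH3A1 and UGT1A6 were named besides, after their values were seen. Some items that the rule or lists cover are left out of the text. Alternatives were RLE, upper-quartile and total-count scaling, no filter, a mean of 50 counts, DESeq2 1.42.0, limma-voom (limma 3.58.1), a replicate block, leaving out mitochondrially encoded genes, leaving out each library, and removing length or length and GC trends (a spline of 4 degrees of freedom fitted robustly with MASS 7.3.60.0.1 over genes above 5 CPM, where 98.2% of tested genes had a length). The fit was also tested on simulated data with known changes.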

Additional observations from a re-analysis of the deposited data

How the results depend on the processing

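With 2 libraries a group and 22252686 to 24979081 counts, genes as scarce as AKR1C2, with at most 11 counts in a library, could not be tested. Over all genes 407 passed, 276 higher and 131 lower. This became 0 without a low-count filter (0 higher, 0 lower, 2297 genes at an unadjusted p under 0.05), 90 by DESeq2 (66 and 24), 224 with the length trend removed (132 higher) and 269 with length and GC trends removed (155 higher, 114 lower), while the filter at a mean of 50 counts gave 212 lower and upper-quartile scaling 223 higher and 190 lower. The replicate block gave 759 (487 and 272). The replicate numbers share only a number (correlation of same-numbered deviations 0.035 over 12542 genes), and under that block 1 of the 9 genes passed, NQO1 (log2 0.11, adjusted p = 0.0459), which is also the 1 gene of the quinone list that passed, and so did 1 other NADPH source, MTHFD2L. Leaving out 1 library, where the lone library of a group is assumed to vary like the other group, gave 0 to 200 genes (0 to 155 higher, 0 to 45 lower), 0 of the 9, and 0 to 4 of the 5 other NRF2 targets; it was 0 without either PBS library, with 1562 and 1672 genes at an unadjusted p under 0.05. Those targets also came to 0 without a low-count filter, where no gene passed, and to 6, with GSR, under the block and with a mean of 50 counts. The 1 pentose phosphate gene became 0 without the filter, by DESeq2, by limma-voom, with either trend removal and without any 1 library. In the quinone list 1 gene, PTGR3, passed with either trend removal. Signs turned for TALDO1 (log2 0.0061 with the length trend removed, 0.0051 with length and GC removed, 0.0013 without PBS replicate 1, 0.015 without nanoparticle replicate 2), for TKT (0.0010 with length and GC removed, 0.0064 without PBS replicate 2, 0.015 without nanoparticle replicate 2) and for AKR1B1 (-0.015 without nanoparticle replicate 1). They also turned for AKR7A2 (0.012 with length and GC removed) and KCNAB3 (-0.036 without nanoparticle replicate 2, up to 0.17 without nanoparticle replicate 1). Leaving out 1 library moved the log2 fold change within 0.080 to 0.13 for NQO1, -0.015 to 0.064 for AKR1B1, -0.069 to -0.025 for PGD, -0.11 to 0.015 for TALDO1, -0.040 to 0.015 for TKT and 0.066 to 0.23 for ME1. With the length trend removed AKR1B1 had 0.073 (95% interval 0.0038 to 0.14, adjusted p = 0.341) and PGD -0.012. The causes of these changes were not tested.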
